A study of Arabidopsis thaliana with 25 samples.

Results

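The 25 ATH1 arrays of this study were used to ask where the transcript response of Arabidopsis seedlings to oxygen deprivation differed between roots and shoots. All 25 of the 25 arrays in the series entered the comparison. For each probe set, the change from normoxia to hypoxia in roots minus the same change in shoots was averaged over 3 genotypes with equal weights, from a model of the 12 group means. The 3 genotypes, all in the Col-0 background, were wild type (WT), the T-DNA knockout mpk6 and MPK6ox, which overexpresses MPK6 from the constitutive 35s promoter. The labels do not say how many independent lines stand behind either. MPK6, a mitogen-activated protein kinase, was not analysed here, so its transcript did not serve as a check of the genotype labels. Seedlings were 10 days old and had grown on vertical plates with 1% sucrose under 16 h of light per day. Whole seedlings were kept in argon of 99.998% purity or, as the normoxic mock, in an open box, and were cut into root and shoot afterwards. The labels disagree on the exposure, which is 2 h in the treatment protocol and 9 h in the source names of the hypoxic samples. Every group held 2 arrays, labelled as biological replicates, except MPK6ox hypoxic roots with 3. Pooled over genotypes there were 6 arrays of normoxic roots, 7 of hypoxic roots, 6 of normoxic shoots and 6 of hypoxic shoots.

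Plants meet low oxygen mostly below ground, when soil is waterlogged, and in dense tissue where oxygen use outruns supply. When oxygen falls, transcription factors of the ethylene response factor family that are normally degraded become stable and switch on a set of genes for fermentation, sugar use and signalling, while growth and cell wall synthesis are held back. Roots and shoots start from very different transcriptomes: shoots make the photosynthetic apparatus, and roots make root hair, transport and wall proteins. The same exposure can therefore be read against a different starting level in each organ, and the normoxic levels are given here with each difference.

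Values are log2 expression values, so a difference of 1 unit is a doubling of signal, and errors are standard errors of the fitted contrast unless SD is written. Adjusted p-values are from limma with Benjamini-Hochberg adjustment over all 22746 probe sets tested, and the word called stands for an adjusted p below 0.05. The array medians lay between 6.87 and 7.07, and arrays of one group correlated at 0.982 to 0.992. The organ labels held against marker genes. Roots and shoots differed at 56.9% of probe sets in normoxia, with 30.4% higher and 26.5% lower in roots, and at 53.5% in hypoxia. That split turned with the scaling: with each array centred on its median, 6181 probe sets were higher and 7281 lower in normoxic roots, against 6914 and 6021 in the deposited values. All 11 measured nuclear photosynthesis genes were higher in normoxic shoots, and all 4 measured root marker genes were higher in normoxic roots. In these whole organs, fewer cells of a type and less RNA per cell cannot be told apart.

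Tissue markers moved with the treatment in roots. The mean log2 level of the 11 nuclear photosynthesis genes was 6.67, 7.36 and 8.31 (lowest, median, highest array) in normoxic roots and 8.19, 8.92 and 10.03 in hypoxic roots. In shoots it stayed between 12.64 and 12.92 in both treatments. The mean of the 4 root markers moved the other way in roots, from 10.32 to 10.82 in normoxia to 8.59 to 8.92 in hypoxia. It lay between 7.23 and 7.54 in shoots. This mean does not speak for each marker, as the organ difference of PYK10 was only -0.12. The 3′ minus 5′ log2 signal of control transcripts, a sign of RNA quality, had a median of 3.77 (3.52 to 3.84) in normoxic roots and 3.57 (3.34 to 3.76) in hypoxic roots, and medians of 3.72 and 3.61 in normoxic and hypoxic shoots. Its part in the results was not tested. A fit with the photosynthesis mean of the root arrays as a covariate was run for this reason, and a named gene whose call ended in it is pointed out below. That covariate is itself higher in hypoxic roots, so it also removes part of any root response that runs parallel to it. A call can also end in this fit although the difference is no smaller, as for AT4G10270 below.

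**Figure D1:**
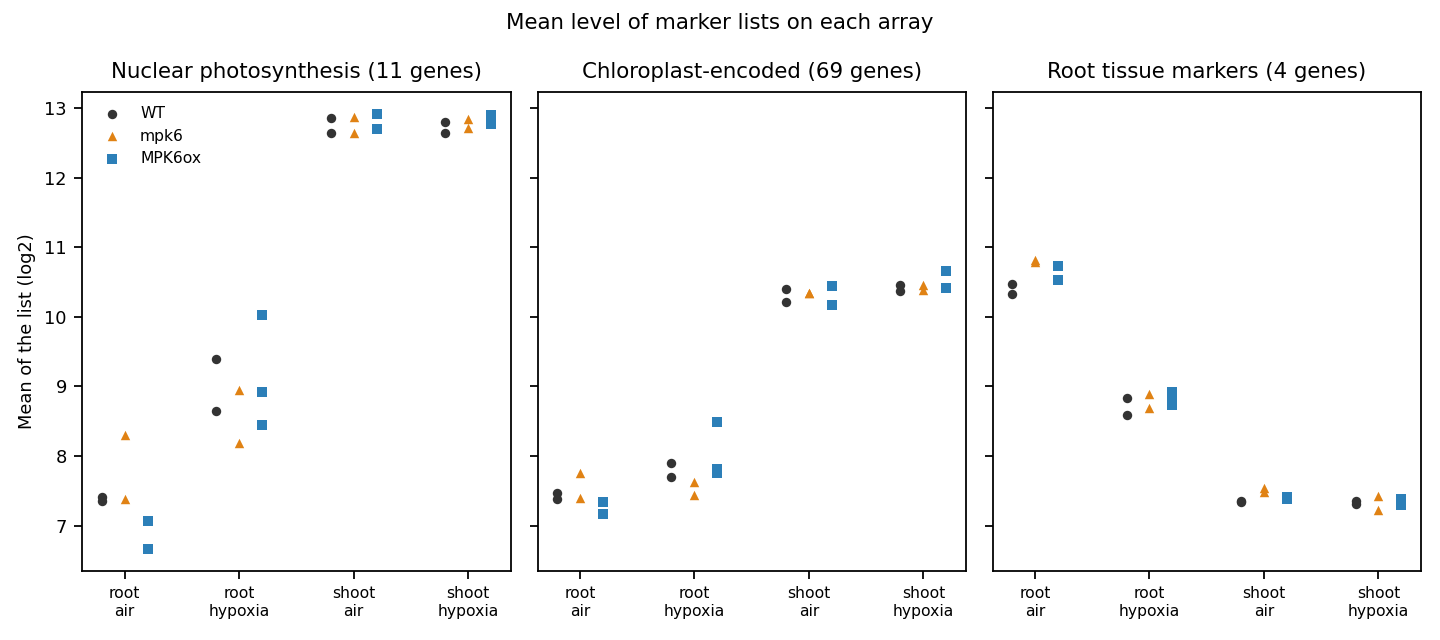
Mean log2 level (vertical axis) of 3 marker lists on each of the 25 arrays, by organ and treatment (horizontal axis, air meaning normoxia), with 1 point per array and the symbol giving the genotype. The photosynthesis mean runs from 6.67 to 8.31 in normoxic roots and from 8.19 to 10.03 in hypoxic roots, and the root markers fall from above 10.32 to below 8.92.

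The response differed between the organs at 1714 probe sets, 7.54% of those tested. The change was higher in roots than in shoots at 734 of them (3.23%) and lower at 980 (4.31%). A difference of at least 2-fold was seen at 294 of the first and 303 of the second. The hypoxia effect itself was called at 5521 probe sets in roots (24.3%, with 9.5% up and 14.8% down) and at 1916 in shoots (8.42%, with 3.14% up and 5.28% down). The balance of rises and falls within an organ turned with the scaling. Roots gave 2160 rises and 3361 falls in the deposited values, 2478 and 3090 after quantile normalization, and 3436 and 2673 with arrays centred on their medians. Shoots gave 715 and 1201, 784 and 1057, and 894 and 847. The organ difference kept more lower than higher calls in each, with 860 higher and 947 lower after quantile normalization and 768 and 903 with centred arrays. With the photosynthesis covariate, the organ difference was called at 469 probe sets, 237 higher and 232 lower, and the hypoxia effect at 1180 in roots and 2031 in shoots. Exactly 1 gene was attached to 866 of the 1714 probe sets, which stood for 865 genes, and only these are named. The highest difference of all, 4.09, belonged to a probe set with no gene in the annotation used.

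The most frequent pattern was a fall in roots that had no called counterpart in shoots. It covered 818 of the 1714 probe sets (47.7%), with a median change of -0.83 in roots and -0.03 in shoots. Among all tested, 2667 probe sets had this pattern, so most falls called in roots alone came without a called organ difference. A rise in roots with no called change in shoots covered 426, of 1688 among all tested. At 148 probe sets, of 490, shoots fell and roots were not called. At 61, of 260, shoots rose and roots were not called. Both organs rose at 440 of all tested. Roots rose more at 103 of these, and shoots were ahead at only 19. Opposite called changes were rare, with 32 probe sets up in roots and down in shoots and 15 the other way round. These were all such probe sets among those tested.

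**Figure D2:**
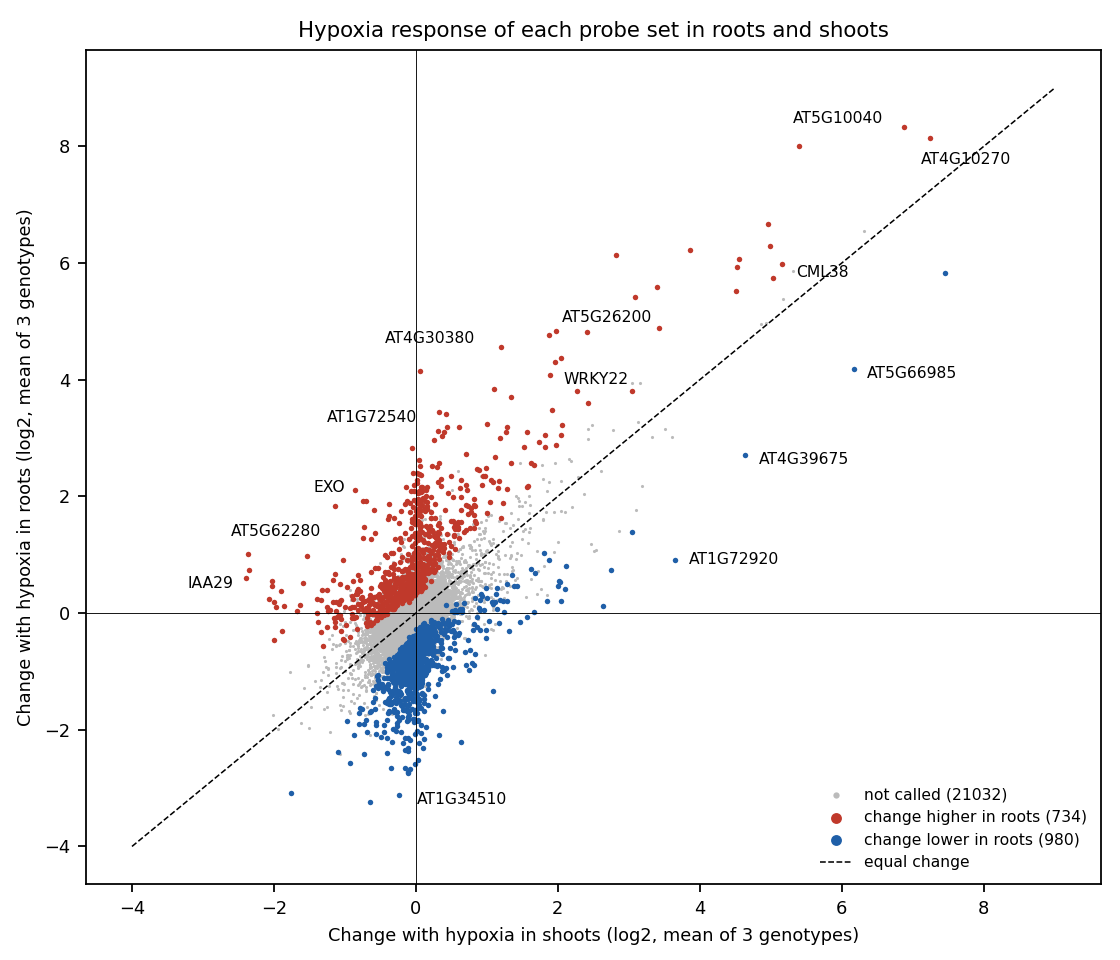
Change with hypoxia in shoots (horizontal axis, log2) against the change in roots (vertical axis, log2), each the mean of 3 genotypes, with 1 point per probe set and a dashed line of equal change. The 734 probe sets with a higher change in roots lie above the line and the 980 with a lower one below it, and most of the latter lie near a shoot change of 0.

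Starting levels went with the direction of the difference. Of the 980 probe sets whose change was lower in roots, 64.8% had stood more than 1 log2 unit higher in normoxic roots than in normoxic shoots, against 11.8% of all tested. Of the 734 with a higher change in roots, 51.9% had stood more than 1 unit higher in normoxic shoots, against 11.0% of all tested. The gap between organs was smaller in hypoxia than in normoxia at 1330 of the 1714 probe sets (77.6%), against 61.3% of all tested. The normoxic arrays enter both the starting gap and the change, so these shares are descriptions and were not tested. The gap widened at 384 probe sets, and it did so at 69 of the 103 where both organs rose and roots rose more.

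**Figure D3:**
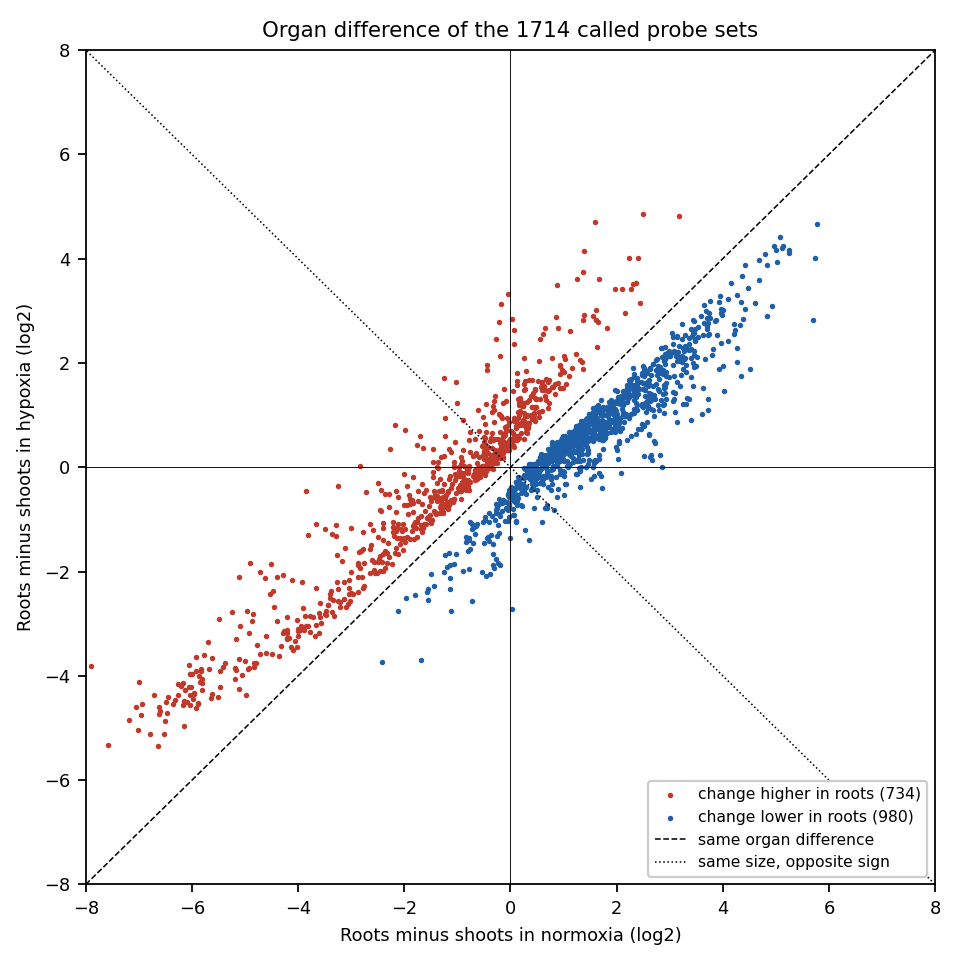
Difference between roots and shoots in normoxia (horizontal axis, log2) and in hypoxia (vertical axis, log2) for the 1714 called probe sets, 1 point each. Points between the dashed line of equal difference and the dotted line of equal size and opposite sign narrowed their organ gap, as 1330 did.

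Most measured genes known to answer low oxygen rose in both organs, and 13 of 26 rose by more in roots. Of 45 genes on a low-oxygen list, 26 were measured. Their change was called for a rise in 24 in roots and 23 in shoots, and none fell. The organ difference was called higher in roots for 13 (3.23% of all tested probe sets) and lower for 2 (4.31% of all tested), with 11 not called. The median difference over the 26 was 0.66, against 0.01 over all tested probe sets. Median levels on the list were 6.79 in normoxic roots and 6.45 in normoxic shoots, and 12.16 and 10.75 in hypoxia. The medians were thus close in normoxia and further apart in hypoxia. Single members did not start level: in normoxia 10 of the 26 were called higher in roots and 10 higher in shoots (30.4% and 26.5% of all tested).

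Of the 15 largest differences with roots ahead, 2 were members of this list. AT5G44730 read 7.83, 7.94 and 8.08 in normoxic roots (lowest, median, highest) and 12.44, 12.70 and 13.18 in hypoxic roots. In shoots it read 8.17, 8.44 and 8.58 in normoxia and 10.40, 10.89 and 10.99 in hypoxia. The groups did not overlap in either organ, and every hypoxic root array lay above every hypoxic shoot array. Its rise was 4.81 ± 0.13 in roots and 2.41 ± 0.13 in shoots, a difference of 2.41 ± 0.18 (adjusted p = 4.67e-07). AT3G29970 rose by 4.37 in roots, from a mean of 5.79, and by 2.05 in shoots, from 6.24, with a difference of 2.32 ± 0.23 (adjusted p = 8.75e-06).

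The 2 members with the steepest rises started from low levels in both organs. AT5G10040 stood at a mean of 5.05 ± 0.16 (SD, n = 6) in normoxic roots and 4.93 ± 0.21 (SD, n = 6) in normoxic shoots. In hypoxia it reached 13.38 ± 0.29 (SD, n = 7) in roots and 11.81 ± 0.31 (SD, n = 6) in shoots, and the difference was 1.46 ± 0.20 (adjusted p = 0.000221). AT4G10270 rose by 8.15 in roots from 5.41 and by 7.24 in shoots from 6.11, and both organs ended close together, at 13.55 and 13.35. Its difference of 0.91 ± 0.16 (adjusted p = 0.00203) came with a starting gap of -0.70. With the photosynthesis covariate the difference was no smaller, at 1.02, but it was not called (adjusted p = 0.061).

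Other members with a called difference in favour of roots kept a gap in hypoxia. AT4G33560 rose by 6.07 in roots from 4.93 and by 4.55 in shoots from 5.27. AT4G24110 rose by 5.93 from 6.76 and by 4.52 from 7.11, and AT2G17850 by 5.52 from 5.60 and by 4.51 from 5.18. CML38, a calmodulin-like calcium sensor, rose by 5.99 in roots from 6.82 and by 5.16 in shoots from 7.25, a difference of 0.82 ± 0.13 (adjusted p = 0.00069). AT3G03270 and AT1G26270 already stood higher in normoxic roots, by 0.71 and 0.93, and the gap in hypoxia was 1.47 and 1.52. The difference of AT1G26270, 0.59 ± 0.08, was 0.49 with the photosynthesis covariate and was not called there (adjusted p = 0.085).

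Several strong responders gave no called difference. AT3G10040 rose by 6.55 in roots from 6.32 and by 6.32 in shoots from 5.92, a difference of 0.23 ± 0.21 (adjusted p = 0.60). AT3G23170 rose by 5.38 from 5.41 and by 5.17 from 5.36, a difference of 0.21 ± 0.23 (adjusted p = 0.69). AT5G45960 and AT5G27760 were not called in either organ.

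**Figure D4:**
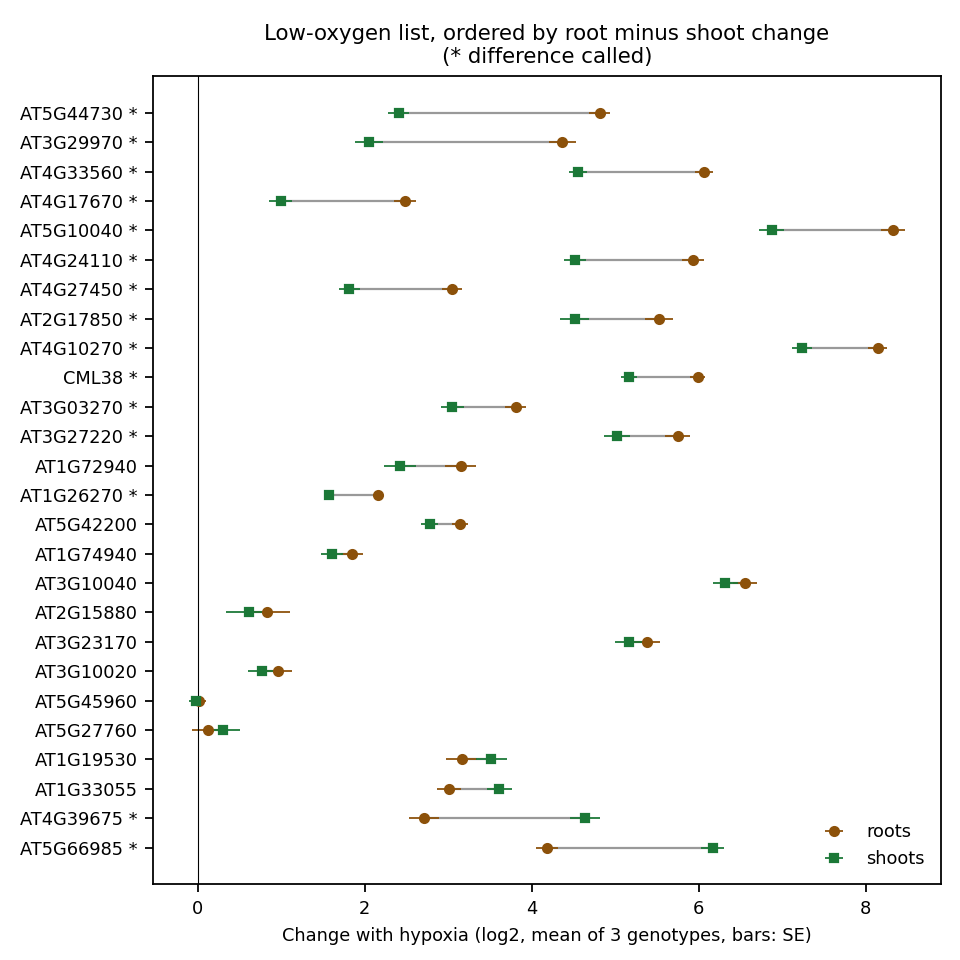
Change with hypoxia (horizontal axis, log2, mean of 3 genotypes) in roots (circles) and shoots (squares) for the 26 measured genes of the low-oxygen list, with bars of 1 standard error and a star where the difference was called. The root change exceeds the shoot change in 21 of the 26, and AT5G66985 and AT4G39675 at the bottom show the reverse.

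Genes of fermentation and sugar breakdown were sparsely measured, 6 of 21 on their list. AT4G17260 read 8.45, 8.52 and 8.62 in normoxic roots and 11.22, 11.71 and 12.13 in hypoxic roots. In shoots it went from 7.74, 7.95 and 8.13 to 9.07, 9.18 and 9.61. Every hypoxic root array was above every hypoxic shoot array, and the difference was 1.90 ± 0.20 (adjusted p = 1.14e-05). It was the only call among the 6 (3.23% of all tested were called higher). PDC2, a pyruvate decarboxylase of ethanol fermentation, rose by 3.95 in roots from 9.44 and by 3.04 in shoots from 8.94, and its difference of 0.91 ± 0.52 was not called (adjusted p = 0.37). GAPC2, a cytosolic glyceraldehyde-3-phosphate dehydrogenase of glycolysis, stood at 13.48 and 13.50 in normoxic roots and shoots, with a difference of 0.13 ± 0.19.

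Several other genes with near equal normoxic levels in both organs rose by far more in roots. AT4G30380, annotated as the expansin-like protein EXLB2, read 4.22, 4.29 and 4.52 in normoxic roots and 4.27, 4.32 and 4.57 in normoxic shoots. It reached 7.64, 8.96 and 9.44 in hypoxic roots and 5.22, 5.54 and 5.83 in hypoxic shoots. Both organs rose without overlap between treatments, and the difference was 3.37 ± 0.33, or 10.3-fold (adjusted p = 7.86e-06). AT2G34400 rose by 3.41 ± 0.09 in roots from 6.24 and by 0.42 ± 0.10 in shoots from 6.45, a difference of 2.98 ± 0.13 (adjusted p = 2.46e-09). AT1G72540 rose by 3.13 in roots from 5.38, whereas its shoot change of 0.31 from 5.36 was not called (difference 2.82 ± 0.32, adjusted p = 2.49e-05).

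AT4G14980 had a starting gap in the same direction as its response. It stood 1.39 higher in normoxic roots, at 6.46 against 5.07, rose by 3.19 in roots and ended 4.14 higher there. AT5G26200 is the opposite case, since its root rise closed a gap. Its normoxic mean was 6.13 in roots and 9.38 in shoots, its rise was 4.76 and 1.87, and the organs ended at 10.89 and 11.25, which were not called as different (adjusted p = 0.20). On the linear scale its signal increased by about as much in both organs, 1887 in roots and 1820 in shoots. ARL (ARGOS-like), whose family promotes organ growth, rose by 3.25 ± 0.15 from 8.98 in roots and by 1.00 ± 0.16 from 9.98 in shoots (difference 2.25 ± 0.22, adjusted p = 6.94e-06). The organ with the higher ARL signal changed with the treatment, as hypoxic roots stood at 12.22 and hypoxic shoots at 10.99.

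Of 7 measured WRKY factors, plant transcription factors of stress and defence, 1 was called in each direction. Of all tested probe sets, 3.23% were called higher and 4.31% lower, and 1 call says little about a list this small. WRKY22 read 5.57, 6.15 and 6.50 in normoxic roots and 8.85, 10.62 and 10.89 in hypoxic roots, and went from 7.55, 7.85 and 8.28 to 9.30, 9.80 and 10.17 in shoots. Its rise was 4.08 in roots and 1.89 in shoots, a difference of 2.19 ± 0.39 (adjusted p = 0.00211). WRKY53 fell by 1.44 in roots, from 7.42, and was not called in shoots, where it stood at 6.39 (difference -1.35 ± 0.29, adjusted p = 0.00677). Both calls were lost with the photosynthesis covariate, with differences of 1.07 for WRKY22 and -1.06 for WRKY53.

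**Figure D5:**
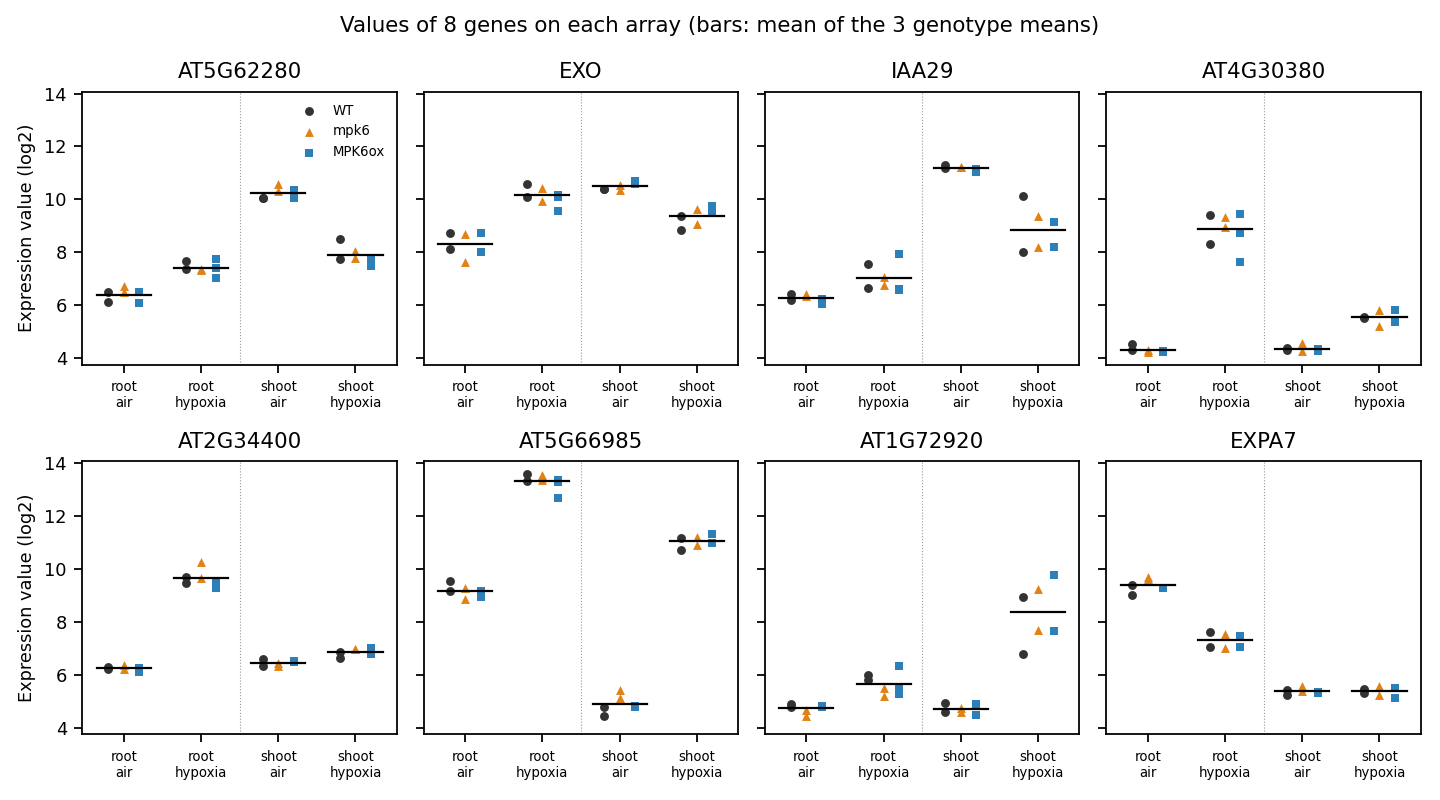
Expression value (vertical axis, log2) of 8 genes on each of the 25 arrays by organ and treatment (horizontal axis, air meaning normoxia), with 1 point per array, the symbol giving the genotype and the bar the mean of the 3 genotype means. EXO and AT5G62280 rise in roots and fall in shoots, AT5G66985 rises in both from unequal levels, and EXPA7 falls in roots.

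Both organs rose with shoots ahead at 19 probe sets, and at some of them the sign turned on the scale. AT5G66985, on the low-oxygen list, read 8.85, 9.16 and 9.55 in normoxic roots and 12.69, 13.36 and 13.60 in hypoxic roots. In shoots it went from 4.44, 4.80 and 5.40 to 10.72, 11.08 and 11.32. No groups overlapped, and even hypoxic shoots against hypoxic roots did not. On the log2 scale the change was 4.18 in roots and 6.17 in shoots, a difference of -1.99 ± 0.19 (adjusted p = 6.93e-06). On the linear scale the signal increased by 9974 in roots and 2119 in shoots, so the sign was the other way round. AT4G39675, the other list member with shoots ahead, rose by 2.71 in roots from 10.79 and by 4.64 in shoots from 5.97, and its signal increased by 9811 in roots and 1513 in shoots. Its difference of -1.93 ± 0.26 (adjusted p = 0.000141) was -1.62 with the photosynthesis covariate and just missed the threshold there (adjusted p = 0.052).

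AT2G37750 behaved alike, with a rise of 0.46 in roots from 13.18 and of 2.00 in shoots from 9.37, and with signal increases of 3465 and 2008. Its difference of -1.54 ± 0.23 was -1.32 with the covariate and lost its call there (adjusted p = 0.090). Among the 19 probe sets of this pattern, the sign on the linear scale differed from that on the log2 scale at 5 (26.3%), against 42 of all 1714 (2.45%). Differences in favour of roots were also among the 42. They included 24 of the 426 probe sets that rose in roots with no called change in shoots (5.63%). A further 6 were among the 103 where both organs rose and roots rose more (5.83%). AT1G48100 kept its sign on both scales. It rose by 0.55 ± 0.09 in roots from 5.16 and by 2.02 ± 0.10 in shoots from 5.70, a difference of -1.47 ± 0.13 (adjusted p = 3.8e-06). Its signal increased by 17.4 in roots and by 159 in shoots.

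Some genes rose in shoots with no called change in roots. AT1G72920 read 4.44, 4.78 and 4.89 in normoxic roots and 4.48, 4.66 and 4.93 in normoxic shoots. It reached 6.78, 8.32 and 9.79 in hypoxic shoots and 5.19, 5.51 and 6.31 in hypoxic roots. The hypoxic arrays lay above the normoxic ones in both organs and the organs did not overlap in hypoxia, but the shoot arrays spread over about 3 units. Its change was 3.66 ± 0.37 in shoots and 0.91 ± 0.36 in roots (adjusted p = 0.076), a difference of -2.74 ± 0.52 (adjusted p = 0.00289). AT1G66090 rose by 1.17 in shoots from 6.20 and was not called in roots, where it changed by -0.17 from 5.87. Its difference of -1.34 hardly moved with the covariate, at -1.32, but was not called there (adjusted p = 0.097). AT1G19020 rose by 0.99 in shoots from 9.46, and stood at 11.59 in normoxic roots with a change of -0.28 that was not called.

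Genes that rose in roots and fell in shoots mostly stood higher in normoxic shoots, by more than 1 log2 unit at 24 of the 32 probe sets. EXO (EXORDIUM), a cell wall protein gene of brassinosteroid-promoted growth, read 7.61, 8.40 and 8.72 in normoxic roots and 9.56, 10.10 and 10.56 in hypoxic roots. In shoots it read 10.35, 10.47 and 10.68 in normoxia and 8.85, 9.42 and 9.73 in hypoxia. The treatments did not overlap in either organ, and the ranking of the organs turned, from 2.18 lower to 0.80 higher in roots. The difference was 2.98 ± 0.27 (adjusted p = 3.8e-06), with 3.21 in WT, 3.13 in mpk6 and 2.60 in MPK6ox.

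AT5G62280 gave the largest difference of any named gene, 3.38 ± 0.20 or 10.4-fold (adjusted p = 4.87e-08). It read 6.06, 6.49 and 6.73 in normoxic roots and 7.02, 7.36 and 7.73 in hypoxic roots, and fell in shoots from 10.05, 10.19 and 10.59 to 7.46, 7.77 and 8.49. The rise in roots was small, 1.02, and most of the difference came from the fall of 2.36 in shoots. The gap between organs went from -3.84 to -0.46. AT5G12050 rose by 0.98 in roots from 6.50 and fell by 1.54 in shoots from 10.31, with root arrays of the treatments overlapping slightly. AT3G49220 rose by 0.67 in roots from 10.03 and fell by 1.14 in shoots from 11.49, which reversed its organ gap from -1.46 to 0.35.

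The median difference was -1.40 over the 15 probe sets that fell in roots and rose in shoots, and 0.90 over the 32 of the opposite kind. AT4G20430 fell by 0.30 in roots from 6.97 and rose by 1.31 in shoots from 7.44, a difference of -1.61 ± 0.15 (adjusted p = 3.31e-06). AT1G72900 fell by 0.89 in roots from 7.05 and rose by 0.71 in shoots from 7.29, and AT3G10930 fell by 0.89 from 8.75 and rose by 0.82 from 6.04. In hypoxia AT3G10930 still stood 0.99 higher in roots, whereas AT4G20430 and AT1G72900 stood higher in shoots. The differences of AT1G72900 and AT3G10930 were -1.59 and -1.71. With the photosynthesis covariate they were no smaller, at -1.78 and -1.85, but were not called (adjusted p = 0.052 and 0.10).

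The called auxin genes stood far higher in normoxic shoots than in normoxic roots. Of 11 measured auxin response genes of 121 on the list, 2 were called, both higher in roots (3.23% of all tested), and the median difference was 0.16. IAA29, an Aux/IAA repressor of auxin signalling, read 11.05, 11.20 and 11.28 in normoxic shoots and 8.03, 8.68 and 10.11 in hypoxic shoots. In roots it read 6.03, 6.29 and 6.41, and then 6.57, 6.75 and 7.92. The shoot fall of 2.35 ± 0.32 was called (adjusted p = 0.00013) and the root change of 0.74 ± 0.31 was not (adjusted p = 0.099), with a difference of 3.08 ± 0.45 (adjusted p = 0.000305). GH3.3, which conjugates auxin to amino acids, rose by 1.48 in roots from 6.69 and stood at 9.19 in normoxic shoots, where a change of -0.72 was not called. Both differences lost their call with the photosynthesis covariate, at 1.97 for IAA29 and 0.75 for GH3.3.

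Among the other genes that fell in shoots alone, AT5G57760 fell by 1.63 from 7.12 and stood at 4.84 in normoxic roots, and AT3G09580 fell by 1.40 from 8.09 and stood at 5.49 in normoxic roots. Their root changes, 0.13 and -0.00, were not called. Of the 148 probe sets of this pattern, 50 (33.8%) had a normoxic root level in the dimmest 25% of all probe sets. Of the 818 that fell in roots alone, 25.9% had a normoxic shoot level in the dimmest 25%.

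The measured root markers fell in hypoxic roots, though not by like amounts relative to shoots. Of 4 measured root markers of 27 on the list, all 4 fell in roots (14.8% of all tested). The organ difference was called lower in roots for 3 (4.31% of all tested), with a median of -2.16. EXPA7, an expansin of root hair cells, read 9.01, 9.34 and 9.70 in normoxic roots and 7.02, 7.44 and 7.63 in hypoxic roots. In shoots it stayed between 5.13 and 5.59 in both treatments, near the level of 5.23 under which the dimmest 25% of probe sets lay in normoxic shoots. The difference was -2.06 ± 0.17 (adjusted p = 1.56e-06), and it held at -1.53 with the photosynthesis covariate (adjusted p = 0.0012). EXPA18, also of root hairs, fell by 2.37 in roots from 10.23 and stood at 5.96 in normoxic shoots (difference -2.26 ± 0.30, adjusted p = 0.00013). Its call was lost with the covariate, at -1.52 (adjusted p = 0.085). AT4G25250 fell by 2.59 from 8.20 against a shoot level of 4.60 (difference -2.58 ± 0.32, adjusted p = 7.24e-05). The fourth marker, the root beta-glucosidase gene PYK10, stood at 14.62 in normoxic roots and 13.74 in normoxic shoots, with a difference of -0.12 ± 0.12 that was not called.

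Expansins loosen cell walls during growth. Of 19 measured of 38, 5 were called lower in roots (4.31% of all tested probe sets) and 3 higher (3.23%), with a median difference of -0.18. The 5 include EXPA7 and EXPA18, already counted among the root markers. EXPA15 fell by 1.56 in roots from 9.24 and was not called in shoots, at 7.83, which left the organs level in hypoxia at 7.69 and 7.67. EXPA16 fell by 1.06 in shoots from 6.85 and EXLA2 by 0.99 from 7.59, whereas their normoxic root levels were 4.85 and 5.84 and their root changes were not called. Beside EXLB2, described above as a rise, the other calls on this list were thus falls in the organ where the gene had stood higher. The calls of EXPA16 (difference 1.28 ± 0.24) and EXLA2 (0.78 ± 0.16) were lost with the photosynthesis covariate, at 0.99 and 0.53 (adjusted p = 0.24 and 0.37). Those of EXPB1 (-0.46 ± 0.13) and EXPB3 (-1.04 ± 0.30) were lost with it at larger differences, -0.66 and -1.36 (adjusted p = 0.12 and 0.20). They were also lost in 16 and 15 of the 25 fits that left out 1 array.

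Xyloglucan endotransglucosylases, which cut and rejoin wall xyloglucan, gave 1 call in each direction among 10 measured of 33. Of all tested, 3.23% were called higher and 4.31% lower. The higher call was EXGT-A3, with a difference of 0.88 (adjusted p = 0.037). Its normoxic signal on the linear scale was 627 in roots and 2897 in shoots. That call was lost in 15 of the 25 fits without 1 array and, at 0.75, with the photosynthesis covariate (adjusted p = 0.44). XTH26 fell by 1.44 in roots from 6.53 to 5.09, the level of shoots (4.95 in normoxia), with a difference of -1.45 ± 0.27 (adjusted p = 0.00228). With the covariate the difference was -1.35 and was not called (adjusted p = 0.15). XTH18 rose by 1.16 in shoots from 6.92 and changed by 0.22 in roots from 8.72, which was not called, and its difference of -0.94 ± 0.31 missed the threshold (adjusted p = 0.081). GH9C2, an endoglucanase of the wall, fell in both organs, by 1.90 in roots from 9.05 and by 0.72 in shoots from 8.05 (difference -1.18 ± 0.21, adjusted p = 0.00228). Its difference hardly moved with the covariate, at -1.17, but was not called there (adjusted p = 0.12).

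Class III peroxidases, secreted enzymes that build and stiffen cell walls, were the best measured family, with 55 of 73. In roots 25 fell and 2 rose, against 14.8% and 9.5% of all tested probe sets. In shoots 3 fell and 1 rose, near the 5.28% and 3.14% of all tested. The organ difference was called lower in roots for 10 (4.31% of all tested probe sets) and higher for 1 (3.23%), with a median of -0.34. Median levels of the family were 8.27 in normoxic and 7.46 in hypoxic roots, against 5.90 and 5.65 in shoots. AT1G34510 read 9.98, 10.80 and 11.45 in normoxic roots and 6.16, 8.15 and 9.12 in hypoxic roots, without overlap. In normoxic shoots it read 4.72, 4.94 and 6.13. Its difference of -2.88 ± 0.60 (adjusted p = 0.0062) was the lowest of all named genes, and it came to -0.42 with the photosynthesis covariate (adjusted p = 0.79).

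Not every peroxidase call ended with that covariate. AT2G39040 fell by 1.59 ± 0.08 in roots from 9.01 and stood at 5.49 in normoxic shoots (difference -1.40 ± 0.11, adjusted p = 7.76e-07), and its difference with the covariate was -1.30 (adjusted p = 0.00073). AT1G68850 fell by 1.93 from 9.39 against a shoot level of 5.18 (difference -1.66 ± 0.20), and gave -2.10 with the covariate (adjusted p = 0.0011). The other 7 falls of the family that set the organs apart were no longer called with it. Their differences with it ran from -0.14 (AT1G30870) to -1.50 (AT2G35380), against -1.73 and -1.66 without it. The exception in direction was AT5G64110, which rose by 0.56 in roots from 6.38 and fell by 0.88 in shoots from 7.15 (difference 1.44 ± 0.18, adjusted p = 7.57e-05). With the covariate its difference was 1.04 (adjusted p = 0.054).

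Further falls called in roots alone were among the lowest differences and carried no functional annotation here. AT1G48690 read 7.01, 7.21 and 7.59 in normoxic roots and 4.65, 4.81 and 5.23 in hypoxic roots. Its hypoxic root level thus came close to the 4.35 to 4.79 of normoxic shoots. The difference was -2.20 ± 0.15 (adjusted p = 1.43e-07). AT4G00910 fell by 2.16 from 8.12 against a shoot level of 4.99, and AT3G50300 by 2.18 from 10.22 against 6.91. AT2G23270 fell by 2.67 from 10.42 and AT3G01260 by 2.74 from 9.80, against shoot levels of 6.08 and 5.28, but their hypoxic root arrays spread widely (SD 0.99 and 0.92, n = 7). The call of AT3G01260 was lost with the covariate, at -0.98 (adjusted p = 0.48). Both organs fell at 679 of all tested probe sets. The organ difference was called lower in roots at 52 of these and higher at 5, and not called at the others. AT5G01210 fell by 2.57 from 10.47 in roots and by 0.92 from 9.88 in shoots, and AT1G49470 by 2.09 from 10.80 and by 0.88 from 9.07. The difference of AT1G49470, -1.21, was -0.72 with the covariate and lost its call there (adjusted p = 0.20).

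Of 64 nuclear photosynthesis genes, 11 were measured, of which 9 rose in roots (9.5% of all tested) and none was called in shoots. The same 9 were called higher in roots for the organ difference (3.23% of all tested), and LHCB4.3 and PORB were not called. The median difference was 1.67. Median levels were 8.05 and 9.83 in normoxic and hypoxic roots, and 13.35 and 13.39 in shoots. RCA, which encodes rubisco activase, read 7.14, 8.05 and 9.21 in normoxic roots and 8.76, 9.81 and 11.06 in hypoxic roots, and 13.82, 13.91 and 14.16 in normoxic shoots. The root treatments overlapped, and all root arrays lay far below all shoot arrays. The difference was 1.74 ± 0.36 (adjusted p = 0.00608). PSAN and PSAE-1, of photosystem I, differed by 1.96 ± 0.36 and 2.04 ± 0.37, from normoxic levels of 8.18 and 8.25 in roots and 13.79 and 14.25 in shoots. PSBW, of photosystem II, differed by 2.04 ± 0.39 from 8.26 and 13.35, and PRK, the phosphoribulokinase of carbon fixation, by 1.67 ± 0.38 from 5.37 and 12.16.

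On the linear scale these root levels were small shares of the shoot signal. The median over the 11 genes was 0.902%, 1.79% and 3.77% of the normoxic shoot signal on the lowest, median and highest array of normoxic roots. It was 3.56%, 6.07% and 13.5% in hypoxic roots. The genotypes were uneven. Both MPK6ox normoxic root arrays had the lowest list means, 6.67 and 7.06. Replicate 1 of mpk6 normoxic roots, at 8.31, lay above replicate 1 of mpk6 hypoxic roots, at 8.19. Replicate 2 of MPK6ox hypoxic roots was the highest, at 10.03. The RCA difference was 1.93 in WT, 0.52 in mpk6 and 2.78 in MPK6ox (unadjusted p = 0.062 by limma's F test for a genotype difference). With the photosynthesis covariate none of the 9 calls remained, as the covariate is the mean of this list. A further fit, chosen after seeing the data, left out the 2 root arrays with the highest list mean of their treatment. These were replicate 1 of mpk6 in normoxia and replicate 2 of MPK6ox in hypoxia, and all 9 were still called. As a high normoxic array was also left out, this does not speak to shoot tissue in hypoxic roots. In the fits without 1 array, SBPASE lost its call in 5 and LHCB4.1 in 9 of 25. The part of shoot tissue in these root values was not tested.

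The organelle genomes gave fewer calls than the nuclear photosynthesis genes. The starting gap was smaller for the chloroplast list, with a median of -2.87 against -5.85 for the nuclear list, so these counts are not directly comparable. Of 69 measured chloroplast-encoded genes, 1 was called higher in roots and none lower, with a median difference of 0.19, and 12 were called for a rise in roots and 2 in shoots. Of all tested probe sets, 3.23% were called higher in roots, 9.5% rose in roots and 3.14% rose in shoots. With arrays centred on their medians, 20 of the 69 rose in roots, against 3436 of all 22746 tested probe sets with the same scaling. The call was psaB, of photosystem I, with 0.98 ± 0.29 from 10.49 in normoxic roots and 14.08 in normoxic shoots, and it was lost in 21 of the 25 fits without 1 array and with the photosynthesis covariate. The chloroplast-encoded signal was 10.8% to 16.9% of that in normoxic shoots in normoxic roots and 12.8% to 26.2% in hypoxic roots, so these ranges overlapped. The chloroplast list mean was highest on the same root arrays as the nuclear list, replicate 1 of mpk6 in normoxia (7.76) and replicate 2 of MPK6ox in hypoxia (8.49). It was lowest on the same array in hypoxia, replicate 1 of mpk6 (7.44), but on another MPK6ox array in normoxia. None of the 16 mitochondrially encoded genes was called for the organ difference, with a median of -0.19. Of these, 5 rose in shoots, against 3.14% of all tested, and 2 in roots, near the 9.5% of all tested, and nad1, of respiratory complex I, rose by 1.09 in shoots from 7.16 and by 0.83 in roots from 6.83.

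The remaining lists gave few or no calls. Of 9 measured calcium sensors, CML38 was called higher in roots (3.23% of all tested) and CML42 lower (4.31%). CML42 gave -0.65 ± 0.17 from 7.28 in roots and 6.19 in shoots. Its call was lost in 9 of the 25 fits without 1 array and, at -0.44, with the photosynthesis covariate. None of 3 measured genes of abscisic acid and drying response was called. COR47, a dehydrin, stood at 12.90 in normoxic roots and 12.61 in normoxic shoots, with a difference of -0.36 ± 0.15 (adjusted p = 0.19).

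No genotype difference of this contrast was called. The organ difference tested in a single genotype was called at 153 probe sets in WT (0.673%), 271 in mpk6 (1.19%) and 295 in MPK6ox (1.3%), with fewer arrays behind each. Of the 1714 pooled calls, 440 were also called in at least 1 genotype alone. The sign was the same in all 3 genotypes at 1700 of the 1714, a count that the average over the same arrays partly fixes. limma's F test for a genotype difference called 0 probe sets, and 281 (1.24%) passed an unadjusted p of 0.05. That is fewer than this threshold would pass if no probe set differed between genotypes. CML38 was among the 281, with differences of 0.37 in WT, 0.88 in mpk6 and 1.23 in MPK6ox (unadjusted p = 0.046, limma). AT4G33560 was another, with 1.96, 1.61 and 0.97 (unadjusted p = 0.049, limma). Neither is a called genotype difference.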

How the data were processed

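Expression was measured on 25 Affymetrix ATH1 arrays, whose probe sets lie near transcript 3′ ends. The table deposited by the authors holds log2 values. Per the submitters' processing notes they come from RMA, of unstated version. Per the labels' protocols, a 2-cycle kit was used to make biotinylated cRNA. Changes are relative to the whole array, since RMA gives arrays like distributions. The values, from 3.60 to 15.1, were used as deposited, and 64 control probe sets were left out. Of 22746 tested, 13513 carried 1 gene, 503 several, and 8730 none in the probe annotation used. Of the 13513, 13436 were matched to RefSeq genes of TAIR10.1 and 77 kept their symbol.

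The fit used limma 3.58.1 in R 4.3.3 on 12 group means without covariates (13 residual and 3.41 prior degrees of freedom), with contrasts, empirical Bayes moderation and Benjamini-Hochberg adjustment, and was tested on simulated data. Arrays have no depth, and their number, 2 or 3 a group, limits precision. P-values measure the spread between these samples. Linear signals are means of 2 to the power of each array's value, averaged over the genotypes. Python 3.11.15, pandas 2.3.3 and matplotlib 3.10.9 made the tables and plots.

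Named genes were the 15 highest and 15 lowest called differences with 1 gene, up to 5 per response pattern, and members of 23 lists, where several probe sets stood for a list gene the one with the highest mean was read. Of the lists, 13 had at least 3 measured genes and hold 243 measured genes. The contrast, the lists and the named genes were chosen with earlier results of these data known, and the peroxidase list was completed by gene ID and the organelle lists defined by chromosome after the files were seen. Alternatives were a replicate block, 1 genotype term, a filter on dim probe sets, 2 further scalings, other moderation, array weights, each genotype or array left out and the photosynthesis covariate. No sequences are shown.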

Additional observations from a re-analysis of the deposited data

Results flagged for a closer look

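The organ by treatment interaction, called at 1714 probe sets, was picked out because the test of the difference itself separates the hypoxia effect in roots from that in shoots. A further 10 named genes were picked out because their called changes ran in opposite directions in the organs. Those that rose in roots and fell in shoots were AT5G62280 (3.38), EXO (2.98), AT5G12050 (2.52), AT3G49220 (1.81) and AT5G64110 (1.44), with log2 differences in parentheses. Those that fell in roots and rose in shoots were AT3G10930 (-1.71), AT4G20430 (-1.61), AT1G72900 (-1.59), AT5G24100 (-1.24) and AT2G17300 (-0.97). AT5G24100 stood at 7.25 in normoxic roots and 5.29 in normoxic shoots, and AT2G17300 at 5.15 and 5.20. The differences of AT5G24100 and AT2G17300 were -0.83 and -0.95 with the photosynthesis covariate and were not called there (adjusted p = 0.10 and 0.15, limma).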

How the results depend on the processing

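The organ difference was called at 1309 to 1929 probe sets when 1 array was left out (549 to 867 higher, 756 to 1062 lower), at 757, 889 and 697 without the WT, mpk6 and MPK6ox arrays (309, 422 and 286 higher; 448, 467 and 411 lower), where fewer arrays enter, and at 469 with the photosynthesis covariate (237 higher, 232 lower). Without probe sets over 2 log2 units higher in normoxic shoots, chosen after seeing the data, 460 were higher. Replicate numbers were not treated as pairing the samples, which required all 66 pairs of groups to have same-numbered deviations correlated above 0.1. Of these, 55 did (median 0.28), and 23 arrays correlated best with their own number, a hint from the data only. Not all 25 arrays could be checked, since 1 MPK6ox hypoxic root array had a replicate number found in no other group. In a group of 2 arrays the deviations mirror each other, so such arrays were not independent checks. With the replicate block, 2568 probe sets were called, 1476 of them lower, and the counts were 3076 for shoots and 268, 487 and 529 for the organ difference in WT, mpk6 and MPK6ox. The root effect gave 4558 to 5878 calls without 1 array, 3657 without the WT arrays and 1180 with the covariate. The shoot effect gave 1290 to 1994 without 1 array and 1038, 1077 and 812 without the WT, mpk6 and MPK6ox arrays. Single-genotype counts ranged over 59 to 201 in WT, 109 to 582 in mpk6 and 101 to 364 in MPK6ox without 1 array. They were 231 in WT with array weights, 168 in mpk6 and 182 in MPK6ox without the WT arrays, and 111 in MPK6ox with the covariate. Only the covariate reversed signs, of AT1G09310 (-0.80), LHCB4.1 (-0.23), PRK (-0.17), PSBY (-0.23) and SBPASE (-0.24). None of these was called there (adjusted p = 0.44, 0.62, 0.76, 0.73 and 0.73, limma). All but AT1G09310 belong to the photosynthesis list whose mean is the covariate. Where fewer arrays do not account for a change by construction, the cause was not tested. Of 107 named calls, 89 held in every fit without 1 array and 45 with the covariate, and 72, 83 and 71 without the WT, mpk6 and MPK6ox arrays.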
